A study of Mus musculus with 10 samples.

Results

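The windows described here are the 5 kb windows of the mouse autosomes to which the deposited table assigned no gene and in which the mean H3K4me3 over the 6 libraries was at least 4 normalized RPKM, the authors' read density after scaling each library for its enrichment. They numbered 33132 of the 544879 windows in the table, or 11.9% of the 278113 autosomal windows without an assigned gene. H3K4me3 was profiled by ULI-nChIP-seq, a native chromatin immunoprecipitation for few cells, in germinal vesicle (GV) oocytes of 21-day-old females of strain C57BL6 (C57BL/6OlaHsd in the study's methods), with a pool of oocytes per library. All samples are labelled as homozygous for floxed *Setd1b*. The *Setd1b* cKO oocytes (N = 3, replicates 1, 3 and 4) also carried Cre recombinase driven by the *Gdf9* promoter, which is active in oocytes from early follicle growth, and the *Setd1b* WT oocytes (N = 3, replicates 1, 2 and 4) are labelled as negative for Cre, although the study's methods also count Cre carriers with 1 intact *Setd1b* allele as WT. Input libraries came from replicates 1 and 4 of both genotypes. The windows were selected on the mean over both genotypes, so their overall level is given as a description, and the comparison of cKO with WT was not part of the choice. A window that changed could still reach the limit through only 1 genotype, the one in which it was high. Values of single libraries are given in the order of replicates 1, 3 and 4 for cKO and of replicates 1, 2 and 4 for WT.

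H3K4me3 is the mark of CpG-rich promoters in most cells, but growing oocytes also deposit it in broad domains between genes. SETD1B and MLL2 are both H3K4 methyltransferases of the COMPASS family. SETD1B acts in a complex with CXXC1, which binds unmethylated CpGs, whereas MLL2 deposits much of the H3K4me3 that oocytes acquire outside active promoters.

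"Without an assigned gene" is a property of the authors' table, and it did not always mean that no gene was present. In the GENCODE M21 annotation of the same build (GRCm38), 26627 of the 33132 windows (80.4%) overlapped no gene. The other 6505 windows overlapped a gene of some kind, with 2918 windows over a lincRNA, 1464 over a protein-coding gene and 1202 over a pseudogene. A transcription start site (TSS) of M21 lay inside 2608 windows. The median distance to the nearest TSS was 13.3 kb, and to the nearest TSS of a protein-coding gene 45.1 kb. For autosomal windows with an assigned gene and a mean of at least 4 (29253 windows, called gene windows from here on), these medians were 3.20 kb and 9.04 kb. For unassigned autosomal windows under 4 they were 27.7 kb and 166 kb.

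Reference sequence of 200 bases is printed for 4 of the 12 windows with the largest changes (2 in each direction) and for 1 of the 4 windows with the highest means, as examples of the sequence in windows without an assigned gene. In 4 called windows the stretch with the most CpGs is printed, with each CG in capitals. The first pair had less H3K4me3 in cKO and the second pair had more. The stretches held 5, 7, 6 and 6 CpGs in this order, and the ratio of observed to expected CpGs was 0.60, 0.539, 0.457 and 0.452. Neither a GC box (GGGCGG) nor a CCAAT box was present on either strand in any of the 4 stretches. All sequences are RefSeq GRCm38, forward strand.
chr14:86152591-86152790: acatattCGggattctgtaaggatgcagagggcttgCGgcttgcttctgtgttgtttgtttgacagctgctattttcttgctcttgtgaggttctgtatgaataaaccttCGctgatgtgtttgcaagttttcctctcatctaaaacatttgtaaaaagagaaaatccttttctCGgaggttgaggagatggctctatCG
chr15:36437746-36437945: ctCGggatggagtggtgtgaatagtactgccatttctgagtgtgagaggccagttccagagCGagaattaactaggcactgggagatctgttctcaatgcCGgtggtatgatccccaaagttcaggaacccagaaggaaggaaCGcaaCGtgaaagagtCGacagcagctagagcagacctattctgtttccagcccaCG
chr12:86878532-86878731: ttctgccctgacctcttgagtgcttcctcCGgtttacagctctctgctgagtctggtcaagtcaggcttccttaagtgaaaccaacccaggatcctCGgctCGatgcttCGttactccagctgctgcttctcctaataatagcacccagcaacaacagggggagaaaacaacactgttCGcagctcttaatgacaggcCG
chr1:65005649-65005848: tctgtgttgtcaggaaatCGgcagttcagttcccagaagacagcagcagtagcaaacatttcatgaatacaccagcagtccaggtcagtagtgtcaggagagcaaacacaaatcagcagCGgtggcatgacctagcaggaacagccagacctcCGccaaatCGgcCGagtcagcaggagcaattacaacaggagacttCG
The fifth sequence comes from the window with the highest mean of all, and there the capitals mark a gene for phenylalanine tRNA, n-TFgaa7 (chr5:125406055-125406127, 73 bases), read from the reverse strand. This stretch held 13 CpGs, with a ratio of observed to expected CpGs of 1.21.
chr5:125405968-125406167: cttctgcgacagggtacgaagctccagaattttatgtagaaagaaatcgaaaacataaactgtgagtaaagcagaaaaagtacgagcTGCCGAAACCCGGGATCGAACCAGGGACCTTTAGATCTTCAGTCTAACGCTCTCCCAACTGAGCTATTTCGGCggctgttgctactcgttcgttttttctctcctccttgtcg

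The windows were intermediate in sequence composition between gene windows and unassigned windows under 4. The median window held 46 CpGs, against 66 in gene windows and 29 in unassigned windows under 4. The median GC content was 43.8%, against 46.2% and 39.96% in these 2 classes. A stretch of 200 bases with at least 50% GC and an observed to expected CpG ratio over 0.6, here called CpG island-like, was present in 10838 windows (32.7%), against 58.7% of gene windows and 16.8% of unassigned windows under 4. Level and CpG content were weakly related, with a Spearman's rho of 0.29 over the 33132 windows. This is a description across windows, which share libraries and are not independent.

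Among windows without an assigned gene, those with a tRNA gene reached the limit of 4 more often than those with any other class of RefSeq gene. This class was looked up after the highest window had been seen. RNA polymerase III transcribes tRNA genes from promoters inside the gene, and they are often absent from lists of genes built for mRNA. RefSeq places 386 tRNA genes on the autosomes, and 169 of them began in a window described here, 94 in a gene window and 96 in an unassigned window under 4. Of the 169 unassigned windows with a tRNA gene, 101 (59.8%) reached a mean of 4. Without a tRNA gene it was 12.5% of the 264854 unassigned windows that had at least 2500 known bases. Among unassigned windows with a CpG content in the interquartile range of the tRNA windows, the shares were 74.7% (65 of 87) and 24.7% (18418 of 74618). These shares are descriptions, since the level is what chose the windows. For other RefSeq classes the share was 29.1% for miRNA genes (25 of 86), 17.9% for snoRNA genes (19 of 106), 17.1% for lncRNA genes (5683 of 33183) and 13.6% for protein-coding genes (1861 of 13701).

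**Figure D1:**
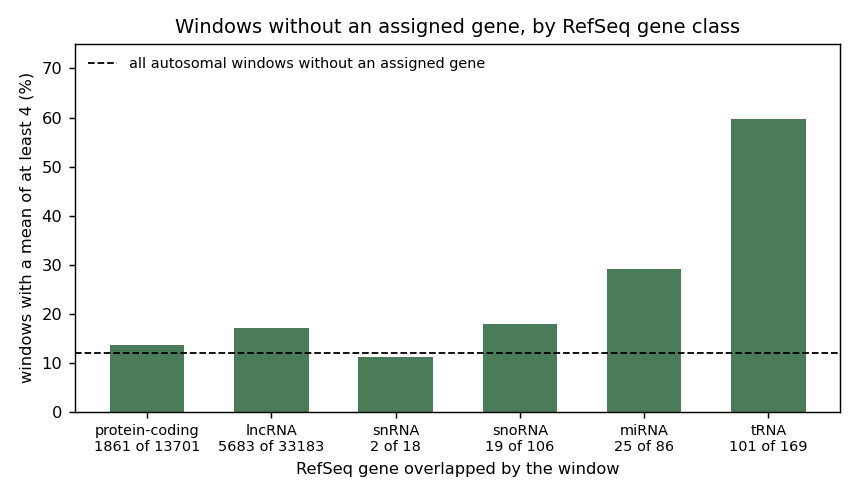
Percent of autosomal windows without an assigned gene that had a mean H3K4me3 of at least 4 normalized RPKM, by the class of RefSeq gene that the window overlapped, with the number of windows under each bar. The bar for tRNA genes (59.8%) stands above the other bars (11.1% to 29.1%) and above the dashed line for all such windows (11.9%). The rRNA genes, with 0 of 2 windows, are not drawn.

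The window with the highest mean, chr5:125405001-125410000, held 4 tRNA genes, for aspartic acid (n-TDgtc15 and n-TDgtc14), phenylalanine (n-TFgaa7) and alanine (n-TAtgc5). H3K4me3 there was 9.33, 9.81 and 10.2 normalized RPKM in cKO and 9.34, 9.40 and 7.13 in WT. WT replicate 4 was the only low library, and the difference of 1.17 (standard error 0.588) did not pass the test (adjusted *P* = 0.396, from limma's moderated linear model with Benjamini-Hochberg adjustment over all windows). Input in the 4 input libraries was between 1.36 and 2.47 RPM. Among the 100 windows with the highest means, 10 held a tRNA gene. H3K4me3 averaged 7.20, 5.96 and 6.71 normalized RPKM over the 101 tRNA windows in cKO and 6.38, 6.21 and 6.22 in WT, so that the genotypes overlapped (exact permutation test, two-sided, *P* = 0.4). None of the 101 was called by limma, while 0.563% of all windows in the table were called as gains in cKO and 0.454% as losses.

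The other 3 windows with the highest means differed in what they contained. The window chr18:65575001-65580000 held the TSS of the zinc finger gene *Zfp532* in M21, with a mean of 8.53 ± 0.627 in cKO and 9.20 ± 1.25 in WT (SD, n = 3 each). The window chr4:147345001-147350000, in a cluster of zinc finger genes between *Zfp988* and *Zfp978*, overlapped the lincRNA gene *C230088H06Rik* and had 8.39 ± 0.873 in cKO and 9.33 ± 1.27 in WT. Its input was high, at 4.21 and 3.23 RPM in cKO and 3.20 and 3.86 in WT, while the mean input over all windows described here was 2.011 to 2.1998. The window chr13:70125001-70130000 lay 309 kb from *Med10*, overlapped no M21 gene, and had 9.26 ± 0.822 in cKO and 8.39 ± 0.692 in WT. At the lower limit, chr12:35430001-35435000 was just inside, with 5.17, 2.42 and 3.40 in cKO and 4.73, 3.76 and 4.53 in WT. Just outside was chr13:105475001-105480000, with 3.89, 2.81 and 3.54 in cKO and 4.37, 4.44 and 4.95 in WT.

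Across all 33132 windows, mean H3K4me3 did not separate the genotypes. It was 5.14, 4.77 and 4.94 normalized RPKM in cKO and 5.10, 4.94 and 5.35 in WT. The mean was 4.95 ± 0.183 in cKO and 5.13 ± 0.209 in WT (SD, n = 3 each), a difference of −0.183 with a standard error of 0.160 (exact permutation test, two-sided, *P* = 0.4). With 3 libraries against 3, this test cannot give *P* below 0.1. The normalization sets the 40th and the 99th percentile of each library equal, so that these means measure how high the windows stood within a library and not a total amount of H3K4me3. The value was lower in cKO in 59.7% of the windows, against 56.3% of all windows in the table and 46.0% of gene windows. In unassigned windows under 4 the share was 63.7% and the mean difference −0.185, so the shift was not particular to the higher windows.

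In relation to gene windows, the windows without an assigned gene were lower in cKO. Within a library, their mean minus that of gene windows was −0.191, −0.341 and −0.253 in cKO, and −0.030, −0.035 and 0.182 in WT. The 3 cKO libraries all lay below the 3 WT libraries. The difference between genotypes was −0.301 with a standard error of 0.0839 (exact permutation test, *P* = 0.1, the lowest that can be reached, and 0.25 after Benjamini-Hochberg adjustment over the 5 comparisons of mean levels). Among windows between the quartiles of CpG content, the middle 2 of 4 classes, it was −0.195, and without one library at a time it was between −0.338 and −0.229. Among windows with a mean of at least 6 it was −0.0276 (exact permutation test, *P* = 1).

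**Figure D2:**
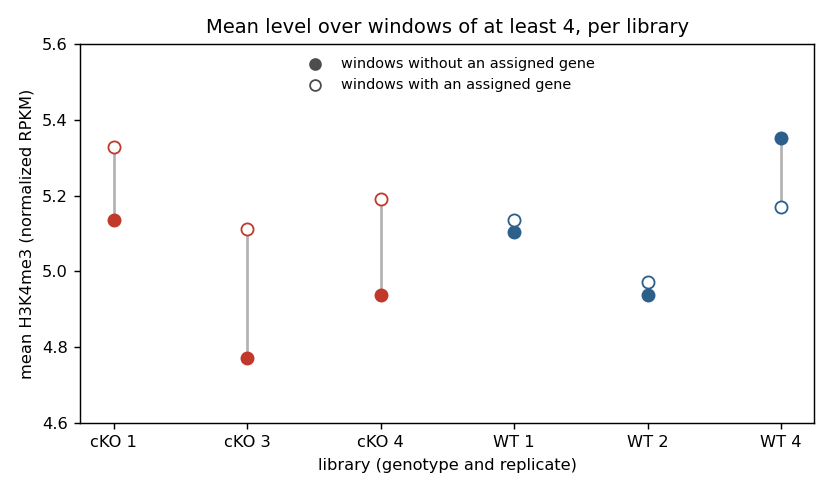
Mean H3K4me3 (normalized RPKM) per library over the 33132 windows without an assigned gene (filled) and the 29253 gene windows (open), both with a mean of at least 4. The vertical axis does not start at 0. In cKO the filled points lie 0.191 to 0.341 below the open points, and in WT between 0.035 below and 0.182 above.

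Libraries differed in enrichment, and this moved with genotype in part. The reads in the 99th percentile relative to the 40th, a measure of enrichment, were 13.5, 3.47 and 3.875 in cKO and 14.3, 5.38 and 6.97 in WT. The windows took 20.4%, 12.2% and 13.3% of reads in cKO and 20.8%, 15.6% and 17.0% in WT, against 6.50% to 7.12% of input reads. The median window held between 43 reads (cKO replicate 3) and 167 reads (WT replicate 4), so that single windows carry a large counting error in the shallower libraries. Over the windows, Pearson's r was 0.54 to 0.68 among WT libraries, 0.35 to 0.54 among cKO libraries and 0.14 to 0.49 between genotypes, with cKO replicate 1 and WT replicate 1 closest. The promoter window of *Setd1b* had 3.93 to 4.66 normalized RPKM in cKO and 6.11 to 7.65 in WT. Summed H3K4me3 at the promoters of 12 oocyte genes was 63.7 to 67.9 in cKO and 72.7 to 78.1 in WT (11 of 12 with a mean of at least 4). Single genes did not all follow this sum: *Gdf9*, whose promoter also drives Cre, had 10.7 in cKO and 7.46 in WT, while *Ooep* and *Figla* differed by −0.094 and 0.046. For 8 granulosa cell genes the sum was 33.3 to 35.2 in cKO and 20.9 to 25.2 in WT (4 of 8). *Fshr*, a defining granulosa gene, had 1.27 in cKO and 0.870 in WT, and *Foxl2* had 7.06 and 4.21. The part of these library differences in the results was not tested.

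The difference between genotypes followed CpG content. The windows were split at the quartiles of CpG content into 4 classes. From the poorest to the richest class, with medians of 27, 41, 53 and 71 CpGs per window, the mean of cKO minus WT was −0.421, −0.277, −0.128 and 0.124 normalized RPKM. Gene windows within the same limits of CpG content had −0.268, −0.100, 0.0648 and 0.269. The richest class minus the poorest was 0.602, 1.17 and 0.969 in cKO and 0.414, 0.378 and 0.315 in WT. The 3 cKO libraries all lay above the 3 WT libraries, by 0.545 on average with a standard error of 0.169 (exact permutation test, *P* = 0.1, adjusted over the 5 comparisons 0.25). The spread in cKO was larger than that in WT (SD 0.288 and 0.0504), and cKO replicate 1, whose enrichment was like that of WT replicate 1, was nearest to WT. Without one library at a time the difference was 0.417 to 0.701. Over single windows, Spearman's rho of CpG content with cKO minus WT was 0.21 for the group means, 0.062 for replicate 1 alone and 0.19 for replicate 4 alone.

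**Figure D3:**
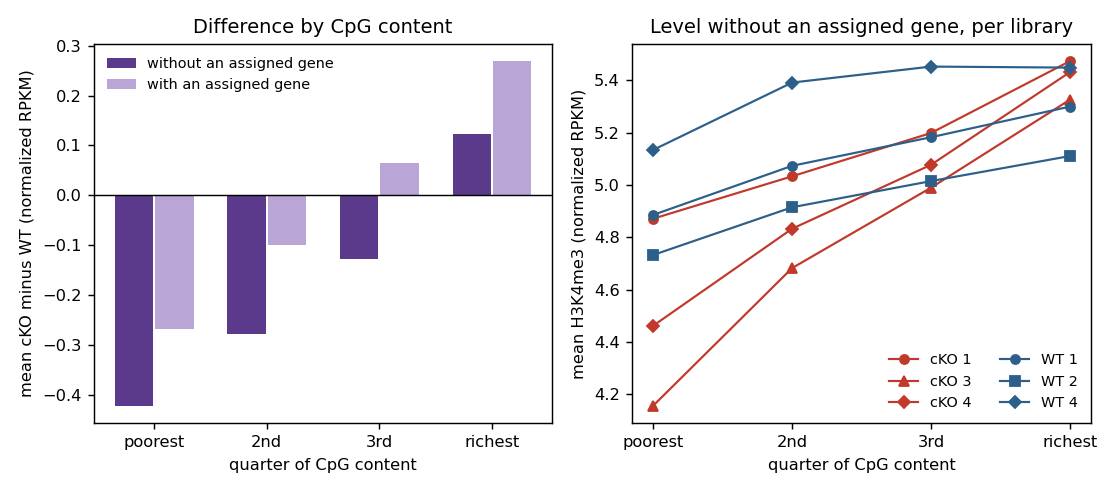
Left, mean cKO minus WT (normalized RPKM) in 4 classes of CpG content, for windows without an assigned gene and gene windows. Right, mean level of windows without an assigned gene in each library, with cKO in red and WT in blue, on an axis that does not start at 0. The difference goes from −0.421 in the poorest to 0.124 in the richest class, and the cKO lines rise more steeply than the WT lines.

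The difference between genotypes also varied with repeat content. The windows were split at the quartiles of the bases masked as repeats in the reference, and the 2 outer classes were compared. These comparisons were not among the 5 adjusted together, and their *P* values are unadjusted. In the class with most masked bases, the mean was 4.94, 4.40 and 4.80 in cKO and 5.07, 4.95 and 5.30 in WT, a difference of −0.393 with all 3 cKO libraries below the WT libraries (exact permutation test, *P* = 0.1). The margin was narrow, with 4.94 in cKO replicate 1 and 4.95 in WT replicate 2. In the least masked class the difference was 0.00590. Masked and CpG-poor windows overlap, so the same classes were compared within the middle 2 classes of CpG content, a comparison added after these values were seen. There the difference was −0.367 in most masked windows (3960) and −0.0635 in least masked windows (4064), with medians of 46 and 47 CpGs. Most minus least masked was −0.262, −0.477 and −0.0722 in cKO and 0.0416, 0.114 and −0.0557 in WT, which separated the genotypes by −0.304 with a standard error of 0.127 (exact permutation test, *P* = 0.1). Here cKO replicate 4 and WT replicate 4 lay close together. Windows with a CpG island-like stretch had a difference of −0.0284 and those without one −0.259.

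Neither distance from genes nor joining to a gene window separated the genotypes. Windows more than 50 kb from any M21 TSS (5528) minus those within 10 kb (14209) gave −0.095, −0.437 and −0.344 in cKO and −0.197, −0.180 and −0.179 in WT, so that cKO lay on both sides of WT (difference −0.107, exact permutation test, *P* = 0.4). Within the middle 2 classes of CpG content this difference was 0.00694. Windows in stretches of high windows without any gene window (25174) minus those joined to a gene window (7958) gave −0.168, −0.446 and −0.308 in cKO and −0.227, −0.169 and −0.211 in WT (difference −0.105, exact permutation test, *P* = 0.4).

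Most of the windows stood alone or in short runs. A total of 10869 had no neighbour of the same kind, 8122 lay in runs of 2, 8241 in runs of 3 or 4, 5242 in runs of 5 to 9 and 658 in runs of 10 or more. The mean of cKO minus WT went from −0.236 for single windows to −0.0128 for runs of 10 or more. Neither class separated the genotypes (exact permutation test, *P* = 0.3 and 0.9). The median number of CpGs per window rose from 42 to 52 between them. The longest run, of 21 windows, covered chr3:144325001-144430000 (105 kb) between *Lmo4* and *Selenof*, partly over the heparan sulfate sulfotransferase gene *Hs2st1*, with 5.11 ± 0.581 in cKO and 5.24 ± 0.462 in WT (SD, n = 3). The next, of 19 windows, covered chr3:34745001-34840000 (95 kb), 92.5 kb from the end of the pluripotency gene *Sox2*, with 5.31 ± 0.284 and 5.14 ± 0.306. A run of 18 windows covered chr7:73555001-73645000 (90 kb) near the chromatin remodeller gene *Chd2*, with 4.995 ± 0.410 and 5.07 ± 0.359. None of these 3 runs held a called window. H3K4me3 also remained raised around the windows: at 5 kb to either side the mean was 3.98 in cKO and 4.10 in WT, and at 50 kb 2.72 and 2.68 on the left and 2.74 and 2.70 on the right.

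Window by window, 297 were called as gains of H3K4me3 in cKO (0.896%) and 356 as losses (1.07%) by limma at an adjusted *P* under 0.05. Of all windows in the table, 0.563% were called as gains and 0.454% as losses. Gene windows had 2.18% gains and 1.33% losses. When the fit allowed the variance to depend on the level, 336 gains (1.01%) and 466 losses (1.41%) were called among the windows, against 1.57% and 2.01% of all windows. The shares of the windows were then below the background and not above it. All 3 cKO libraries lay below the 3 WT libraries in 12.5% of the windows, against 9.95% of all windows, and above in 7.64%, against 9.88%. The calls depended on single libraries. Without cKO replicate 1 there were 674 gains (2.03%) and 1267 losses (3.82%), against 1.71% and 1.59% of all windows. Without cKO replicate 3 there were 131 gains (0.395%) and 86 losses (0.260%), against 0.234% and 0.0892% of all windows. Without cKO replicate 4 or any one of the WT replicates none of these windows was called, and at most 1 window of the whole table. On whole reads edgeR called 3 gains (0.00905%) and 6 losses (0.0181%) among the windows, against 1.07% and 1.22% of the 503726 windows it tested.

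Gains became more frequent with CpG content, while losses showed no steady order. Gains were 11, 38, 79 and 169 from the poorest to the richest class of CpG content, or 0.125%, 0.458%, 0.970% and 2.14% of the windows. Losses were 112, 86, 95 and 63, or 1.27%, 1.04%, 1.17% and 0.799%. Gene windows within the same limits had 0.430%, 1.13%, 2.01% and 2.86% gains and 1.32%, 1.64%, 1.26% and 1.27% losses, so gains followed CpG content there too. In the most masked class there were 28 gains (0.338%) and 141 losses (1.70%), and in the least masked class 148 gains (1.79%) and 65 losses (0.785%). Of the 2918 windows over a lincRNA gene 43 were gains (1.47%) and 28 losses (0.960%). These shares stand beside 0.563% gains and 0.454% losses among all windows of the table. With a variance that depends on the level, the windows over lincRNA genes had 1.61% gains and 1.34% losses and the most masked class 1.96% losses, against 1.57% gains and 2.01% losses among all windows, so these shares no longer stood above the background by much or at all. From the poorest to the richest class of CpG content, gains were then 0.114%, 0.446%, 1.10% and 2.52% of the windows and losses 1.45%, 1.44%, 1.58% and 1.14%. Of the 4 classes of CpG content, only the richest then had gains above the share among all windows, and losses lay below that share in all 4. The least masked class also had gains above it in that fit, at 2.02%, with losses of 1.04%. Calls were scattered: the 297 gains lay in 279 separate stretches and the 356 losses in 347, with at most 3 neighbouring gains and 2 neighbouring losses.

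The surroundings of gains and losses differed in their means. This was not tested, and gains held more CpGs than losses (medians of 64 and 43.5). Around gains, cKO was above WT by 1.24 at 5 kb to the left and 1.22 at 5 kb to the right, and still by 0.534 and 0.453 at 50 kb, where the difference around all windows described here was 0.0484 and 0.0364 and around gene windows 0.191 and 0.182. Around losses, the difference was −0.735 and −0.789 at 5 kb, and −0.0748 and −0.0359 at 50 kb. At the called windows themselves the mean was 6.07 in cKO and 3.43 in WT for gains, and 3.805 in cKO and 6.36 in WT for losses, values that the calling itself selects.

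**Figure D4:**
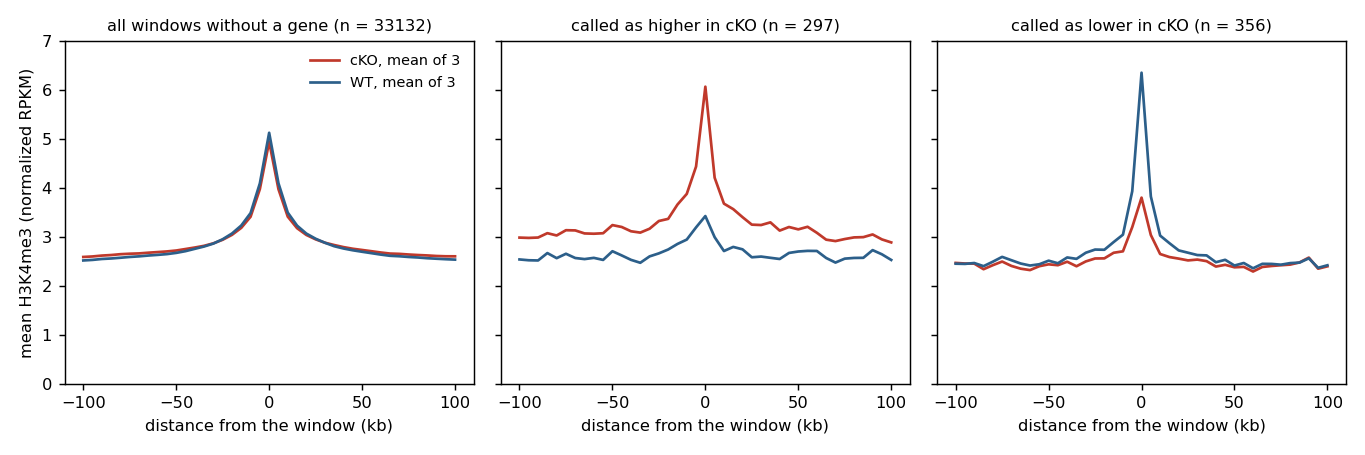
Mean H3K4me3 (normalized RPKM) in cKO and WT, each the mean of 3 libraries, by distance in kb from all windows without an assigned gene, from those called as gains and from those called as losses. At 100 kb cKO is above WT by 0.447 and 0.358 around gains and by 0.0716 and 0.0674 around all windows, and around losses the lines differ by less than 0.1 at 50 kb. The height at 0 kb is fixed by how the windows were selected.

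The 6 largest losses included windows far from any protein-coding gene. The largest, chr14:86150001-86155000, lay 986 kb from the TSS of the formin gene *Diaph3* and overlapped no M21 gene. It had 1.67, 1.36 and 2.43 normalized RPKM in cKO and 7.25, 6.39 and 6.62 in WT, from 16, 18 and 65 reads and 123, 66 and 211 reads. The difference was −4.93 (standard error 0.407, adjusted *P* = 0.0109, limma), and the window 5 kb to the left had 1.78 in cKO and 3.87 in WT. This is one of the 2 sequences printed first above.

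The second, chr15:36435001-36440000, held the TSS of the lincRNA gene *Gm49224*, 56.8 kb from the TSS of *Ankrd46*. It had 2.84, 2.55 and 3.83 in cKO and 8.03, 7.84 and 7.58 in WT, a difference of −4.75. The third, chr9:79170001-79175000 over the lincRNA gene *Gm47499* and 544 kb from the TSS of the collagen gene *Col12a1*, had 2.39, 1.49 and 2.15 in cKO and 6.09, 6.77 and 5.995 in WT. All 3 cKO values were below all WT values by more than 3 normalized RPKM in each of these windows. Another distant loss, chr3:3935001-3940000 over the pseudogene *Gm2077*, had 2.56, 1.49 and 3.01 in cKO and 6.67, 6.19 and 5.79 in WT.

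The remaining 2 losses were at or near genes. The window chr1:134645001-134650000 held the TSS of the synaptotagmin gene *Syt2* in M21, a CpG-rich sequence with 167 CpGs. It had 5.499, 2.55 and 5.38 in cKO and 9.39, 9.40 and 7.40 in WT, with cKO replicate 3 well below the rest (difference −4.26, standard error 0.798, adjusted *P* = 0.0427, limma). The window chr5:36010001-36015000, between *Afap1*, an actin-binding protein gene, and *Sorcs2*, a sorting receptor gene, had 5.89, 4.27 and 5.18 in cKO and 9.97, 9.01 and 8.18 in WT.

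Among the 6 largest gains, chr12:86875001-86880000 lay 4.80 kb from the TSS of *Irf2bpl*. It had 6.33, 8.36 and 8.03 in cKO and 2.43, 3.56 and 2.55 in WT (difference 4.72, standard error 0.553, adjusted *P* = 0.0145, limma). The neighbouring window on the right, which the table assigned to a gene, had 6.45 in cKO and 5.11 in WT. The window chr1:65005001-65010000, 2.69 kb from the end of the gene *Akr1cl*, had 7.50, 6.11 and 5.95 in cKO and 1.39, 2.40 and 1.68 in WT, from 121, 54 and 138 reads and 11, 25 and 46 reads. These are the windows of the second pair of sequences, and no cKO value reached down to a WT value in either.

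The other 4 gains showed the same separation. The window chr4:84100001-84105000, over the pseudogene *Gm12416* and 570 kb from the TSS of the zinc finger gene *Bnc2*, had 7.27, 7.83 and 7.35 in cKO and 2.96, 2.98 and 2.67 in WT. The window chr11:32160001-32165000, 35.3 kb from the TSS of the interleukin 9 receptor gene *Il9r*, had 6.55, 6.25 and 7.06 in cKO and 1.60, 2.88 and 2.43 in WT. The window chr12:112335001-112340000, 149 kb from *A530016L24Rik*, had 7.22, 7.83 and 6.63 in cKO and 2.85, 2.79 and 3.39 in WT. The window chr8:35700001-35705000, itself 20.6 kb from *Mfhas1* and part of a run of 6 windows, had 7.77, 10.1 and 7.55 in cKO and 4.995, 3.66 and 4.41 in WT. These last 2 windows had 4.87 and 7.44 in cKO in the window to their right, against 1.94 and 4.84 in WT.

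None of these 12 windows was called by limma in all 6 fits without one library, where the highest adjusted *P* of a window ranged from 0.0872 to 0.153. On the log2(value + 1) scale their adjusted *P* was 0.0719 to 0.187. In edgeR on whole reads 5 of the 12 were called, namely the losses on chr14 (adjusted *P* = 0.00249, edgeR), chr9 (0.0157) and chr3 (0.0454), and the gains at chr1:65005001-65010000 (0.00152) and on chr11 (0.0301). Most of the 12 windows reached the limit of 4 only through the genotype in which they were high. The exceptions were chr1:134645001-134650000, chr5:36010001-36015000 and chr8:35700001-35705000, where both genotype means were above 4.

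**Figure D5:**
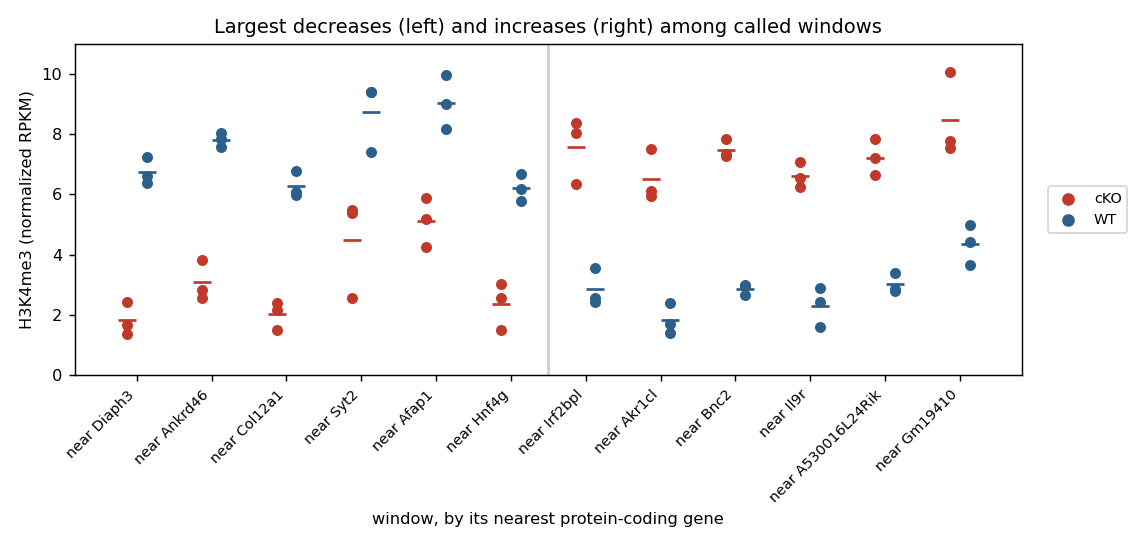
H3K4me3 (normalized RPKM) of each library in the 6 windows with the largest losses (left) and the 6 with the largest gains (right), named by the nearest protein-coding TSS, with cKO in red, WT in blue and a line at each mean. The groups do not overlap in any of the 12, which the rule for naming them requires.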

How the data were processed

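The authors trimmed the reads (Trim Galore 0.4.2, per the labels), mapped them to GRCm38 (Bowtie2 2.2.9), kept mappings with a quality of at least 20 and quantified 5 kb windows in SeqMonk. For H3K4me3 the authors deposited a score, RPKM normalized for enrichment so that the 40th and 99th percentile of every library coincide. For input they deposited a signal, the reads of a window scaled to library size (RPM). Every value was a whole number of read steps above the value at 0 reads, so whole reads were recovered for all values (within 0.02 reads), with 10856015 to 32775874 reads in windows per H3K4me3 library. Whether duplicates were removed could not be seen from these values. Genotypes and replicate numbers came from the labels. The replicates are separate pools of oocytes. According to the study's methods, a further library of each genotype was left out for poor enrichment, judged partly by its place as an outlier in clustering.

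Windows were tested with limma 3.58.1 (R 4.3.3) on the deposited values, without a trend or block, two-sided, with Benjamini-Hochberg adjustment over all 544879 windows and a threshold of 0.05. The test was checked on simulated data. Mean levels per library were compared with exact permutation tests. CpG counts and masked bases came from the RefSeq sequence of GRCm38.p6, TSS from GENCODE M21, and tRNA and other gene classes from RefSeq. The CpG content of a window was its CpG frequency relative to the genome (log2, 0.5 added to the number of CpGs), for windows with at least 2500 known bases. The windows named are the 6 largest decreases and 6 largest increases among called windows without overlap between genotypes, the 4 highest means and those next to the limit. The windows and lists were chosen with earlier results of these data known. Alternatives were an intensity trend, log2(value + 1), quantile normalization, edgeR 4.0.16 on whole reads (TMM, windows with at least 10 reads), adjusted *P* under 0.01, a replicate block, means of at least 3 or 6, medians, no overlap with any M21 gene, and leaving out each library. Chosen after seeing the data were log2(RPM + 0.5), protein-coding TSS only, the middle 2 classes of CpG content and the RefSeq classes.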

Additional observations from a re-analysis of the deposited data

How the results depend on the processing

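The 5 differences of mean levels kept their direction under the alternatives run, apart from windows far from a TSS against near ones, which turned from −0.107 to 0.00694 within the middle 2 classes of CpG content. Without one library at a time, the difference in mean level was −0.2802 to −0.073, that against gene windows −0.338 to −0.229, CpG-rich minus CpG-poor 0.417 to 0.701, far minus near −0.205 to −0.034, and stand-alone minus gene-joined −0.175 to −0.0359. Exact permutation *P* could not go below 0.1 (0.2 without a library).

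The counts of calls were less stable. Gains and losses were 0 and 0 by limma on log2(value + 1) (961 and 1506 at an unadjusted *P* under 0.05), after quantile normalization (1954 and 3548) and at an adjusted *P* under 0.01 (2796 and 4944), and 3 and 6 by edgeR (73 and 315), which called 1.07% and 1.22% of all windows it tested. At a mean of at least 3 they were 663 and 756 (1.07% and 1.23%), and at a mean of at least 6 they were 13 and 60 (0.295% and 1.36%). Of all windows 0.563% were called as gains and 0.454% as losses, so at a mean of at least 6 only losses lay above the background. Gains and losses were 0 to 674 and 0 to 1267 without one library at a time. With the replicate block they were 1546 and 2921 (4.67% and 8.82%, against 2.51% and 3.63% of all windows). The genotypes share only replicate numbers 1 and 4, and the deviations of the paired libraries correlated by 0.068 and −0.0535, which does not show a pairing, and the labels do not say what a number marks. The libraries numbered 1 were alike in enrichment (13.5 and 14.3) and those numbered 4 in depth (29041174 and 32775874 reads). In the block of numbers 1 and 4, the 5 differences of mean levels were −0.192, −0.298, 0.422, −0.0311 and −0.0193, in the order given above. Of the calls with an intensity trend, 221 gains and 248 losses were also called without it. The values cannot show a change in the total amount of H3K4me3.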

Other observations

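Chromosome 19 had the largest share of unassigned windows at a mean of at least 4, at 20.3% (1237 of 6103), and chromosome 14 the lowest, at 7.83% (1157 of 14768). The median of cKO minus WT was below 0 on each of the 19 autosomes, from −0.335 normalized RPKM on chromosome 2 to −0.0672 on chromosome 13. These values are relative to a median of −0.103 over all windows of the table. A further 1224 windows without an assigned gene reached a mean of 4 on X and Y and were left out by the choice of autosomes. Adjacent windows moved together in part: over 14781 pairs of neighbours, Pearson's r of cKO minus WT was 0.37, and 62.3% had the same sign, in libraries that the neighbours share.

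Among the windows with a tRNA gene, the largest difference was in chr13:23400001-23405000, which holds n-TAagc12 and n-TVaac2. It had 11.8, 8.23 and 8.08 normalized RPKM in cKO and 5.83, 6.58 and 5.93 in WT, with all cKO libraries above the WT libraries, and it was not called (difference 3.24, adjusted *P* = 0.0966, limma). It was singled out after its values were seen.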
